A study of Mus musculus with 29 samples.

Results

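Skeletal muscle fibres contract by sliding thick filaments of myosin along thin filaments of actin, and calcium released from internal stores switches the thin filament on through the troponin complex. Fast and slow fibres build this machinery from different isoforms of myosin, troponin and calcium-handling proteins. A neuroblastoma is a tumour of the sympathoadrenal lineage. Of 24 primary abdominal neuroblastoma (NB) tumours, 3 were chosen by a muscle score, the mean log2 level of Ckm, Acta1, Tnnt3, Mylpf and Atp2a1, and these 3, the highest, were compared with the other 21. The score was 9.53 in deficient tumour 11, 8.06 in wild type tumour 3 and 7.06 in wild type tumour 7. The other 21 tumours scored 4.14 to 5.12, with a median of 4.25. The tumour just outside the threshold was deficient tumour 15, at 5.12, and the 5 bone marrow samples scored 4.82 to 5.08. The 3 are called muscle-high tumours below, and the 5 scoring genes, which chose them, are left out of all results.

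All samples came from TH-MYCN mice of strain 129X1/SvJ. The TH-MYCN transgene drives human MYCN from a tyrosine hydroxylase promoter, so every tumour, muscle-high or other, carried it, and animals were labelled wild type or deficient for caspase-8, an initiator protease of cell death. RNA from 24 tumours and 5 samples of total bone marrow was measured on 29 mouse 3' expression arrays, 1 array per sample, and the values are log2 expression. The muscle-high tumours were 1 deficient and 2 wild type tumours, and the other tumours were 16 deficient and 5 wild type. Tumours are numbered here by their order within each genotype, and these are not the numbers in the sample titles. Ages are not given in the sources used here, nor whether samples are from separate animals, so the errors below measure the spread between these samples, and the number of arrays limits the precision.

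Both genotypes and both title series were found in both groups of tumours. Wild type caspase-8 was the label of 2 of 3 muscle-high tumours and 5 of 21 other tumours (Fisher's exact test, two-sided p = 0.194). Sample titles carry a lower and a higher series of numbers, and 2 of 3 muscle-high tumours and 12 of 21 other tumours were in the higher one (Fisher's exact test, two-sided p = 1). With 3 muscle-high tumours these tests can show little. No split by title series could have given a p under 0.05, so balance between the groups is not shown. Casp8 was at 5.19, 5.57 and 5.55 in deficient tumour 11, wild type tumour 3 and wild type tumour 7, within the 4.68 to 6.91 of the other tumours. Correlations across probe sets between pairs of tumours ran from 0.969 to 0.993, and no pair of arrays held identical values. The excess of 3' over 5' signal of control probe sets, a measure of RNA degradation, was 0.603 ± 0.166 (SD, n = 3) in the muscle-high and 0.735 ± 0.176 (SD, n = 21) in the other tumours, a log2 difference of -0.13 (exact permutation test, two-sided p = 0.233, smallest possible p 0.000494).

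Of 18188 genes tested with limma, 46 (0.253%) passed an adjusted p of 0.05, 45 of them higher (0.247%) and 1 lower (0.0055%) in the muscle-high tumours, and a gene that passed is said below to be called. Of the 45 higher genes, 35 stood on at least 1 of 11 lists of muscle genes and 10 on none. Across all muscle lists 35 of 148 measured members were called higher, against 2 of 373 genes found only on the other 27 lists and 8 of 17667 on no list. All 3 muscle-high tumours lay above all 21 others for 34 of the 45, and for 39 (0.214%) of all genes tested. They lay below all 21 for 5 genes (0.0275%). Because the muscle score chose the tumours, nothing is read from the calls of muscle genes in any fit. Their values, calls and counts are given as a description, with no p for a single muscle gene. In RNA from whole tumours, a change in cell numbers and a change in RNA per cell cannot be told apart. Which cells made the muscle RNA was not tested.

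The genes of fast fibres differed most. All 12 measured fast-fibre genes were called higher, against 0.247% of all genes, and their median log2 difference was 3.55, against 0.009 over all genes. All 3 muscle-high tumours lay above all 21 others in 11 of the 12, against 0.214% of all genes. The groups overlapped only in Myh2. Not all 12 were called in every fit. In the higher title series alone, Myh1, Myh2, Casq1 and Myoz1 were not called, at 3.61, 0.39, 1.82 and 1.45. Among wild type tumours, Myh2, Casq1, Myoz1 and Pgam2 were not called, at 1.63, 1.37, 1.04 and 1.10. Of the scoring genes, Tnnt3, Mylpf and Atp2a1 are themselves fast-fibre genes, so the rule favours this list. Tnnc2, the calcium-binding troponin C of fast fibres, was at 10.06, 8.92 and 7.88 in deficient tumour 11, wild type tumour 3 and wild type tumour 7, against 3.38 to 5.27 (median 3.70) in the other tumours. Its log2 difference of 5.15 (SE 0.28) is 35.6-fold. Myh4, the myosin heavy chain of the fastest fibres (type IIb), was at 9.84, 8.35 and 7.27 in the same 3 tumours, against 2.82 to 4.76 (median 3.47) in the others, a difference of 5.04 (SE 0.32). For both genes the 3 muscle-high tumours kept the order of the score, and the highest of the other tumours was deficient tumour 15. Myl1, the essential light chain of fast myosin, was at 8.50, 8.15 and 6.98, against 2.71 to 4.40 (median 3.11) in the other tumours, a difference of 4.69 (SE 0.25). Fast troponin I, encoded by Tnni2, was at 9.15, 7.81 and 6.80, against 3.48 to 4.51 in the others. The fast myosin-binding protein C gene Mybpc2 was at 9.26, 6.92 and 6.07, against 3.36 to 4.16 in the others. In none of these 5 genes did any other tumour reach the lowest muscle-high one. Other probe sets of some genes showed less: a second one of Myh4 differed by 0.52, and with a gene's probe sets averaged the difference was 2.78 for Myh4, 2.04 for Tnni2 and 0.76 for Myoz1, all still called. RMA compresses low signals, so these differences may understate the change of genes near the array's floor.

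**Figure D1:**
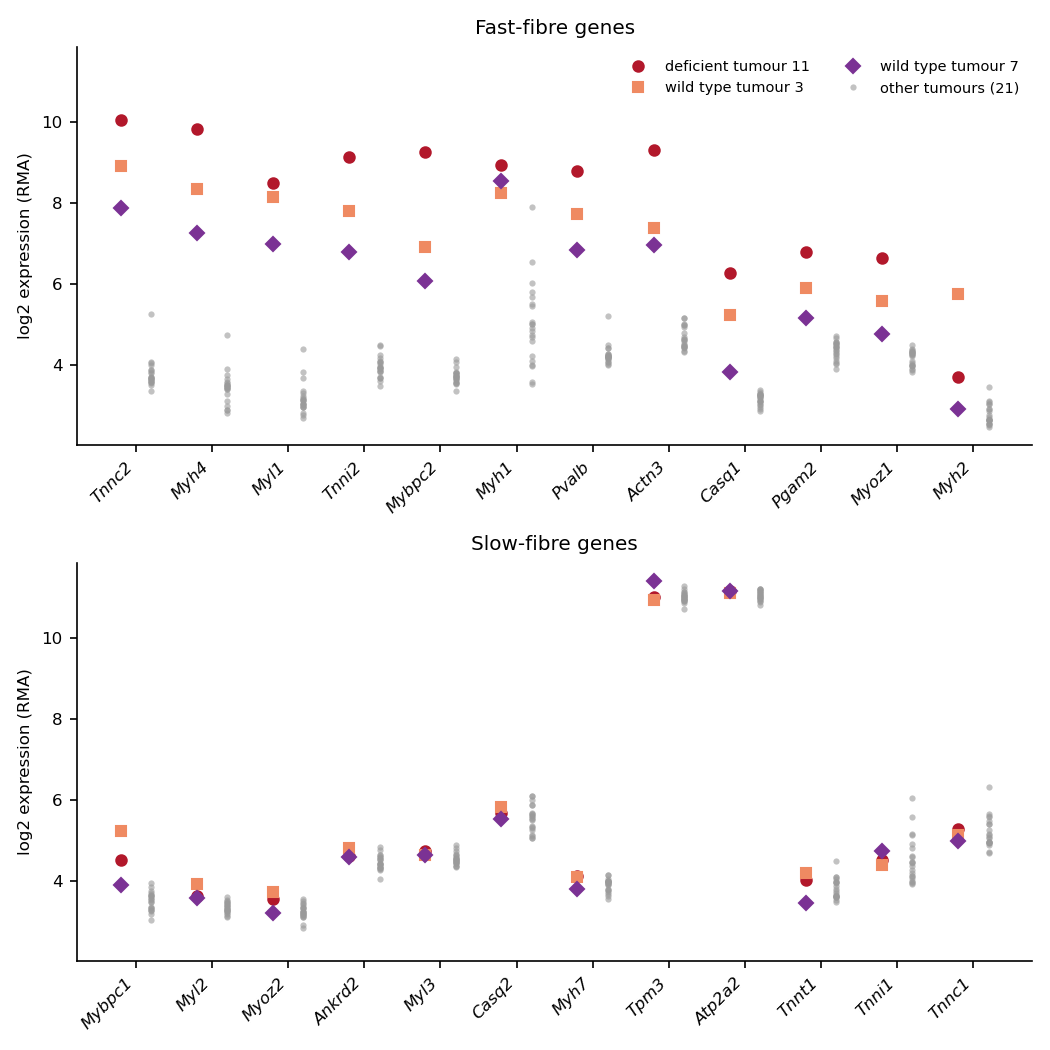
Log2 expression of 12 fast-fibre genes (top) and 12 slow-fibre genes (bottom) in each tumour, genes ordered by the difference between groups. Coloured points are the 3 muscle-high tumours and grey points the 21 other tumours: the fast-fibre genes separate except Myh2, while among the slow-fibre genes the groups overlap in every gene.

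The 3 genes with the largest differences are shown by their promoter windows, to let a reader see the muscle motifs that stand there, beside the slow troponin C gene Tnnc1, which was not called. The windows run from 250 bases before to 50 bases after the gene start, from RefSeq (GRCm38.p6). Capitals mark E-boxes (CANNTG, the motif of the MyoD family), MEF2 motifs and M-CAT motifs (CATTCC), searched on both strands. No marked motif overlaps another.
Tnnc2: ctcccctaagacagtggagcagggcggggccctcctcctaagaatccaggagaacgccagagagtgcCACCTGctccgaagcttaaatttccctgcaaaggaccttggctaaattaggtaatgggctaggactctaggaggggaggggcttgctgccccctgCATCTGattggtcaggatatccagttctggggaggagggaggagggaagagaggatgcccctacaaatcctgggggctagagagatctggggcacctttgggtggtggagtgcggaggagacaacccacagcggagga
Myh4: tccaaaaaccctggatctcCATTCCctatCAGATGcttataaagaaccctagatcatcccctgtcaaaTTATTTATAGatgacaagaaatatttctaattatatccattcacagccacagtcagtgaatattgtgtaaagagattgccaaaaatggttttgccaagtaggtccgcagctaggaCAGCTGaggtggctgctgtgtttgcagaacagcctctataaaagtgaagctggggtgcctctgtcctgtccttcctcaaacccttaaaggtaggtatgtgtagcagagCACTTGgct
Myl1: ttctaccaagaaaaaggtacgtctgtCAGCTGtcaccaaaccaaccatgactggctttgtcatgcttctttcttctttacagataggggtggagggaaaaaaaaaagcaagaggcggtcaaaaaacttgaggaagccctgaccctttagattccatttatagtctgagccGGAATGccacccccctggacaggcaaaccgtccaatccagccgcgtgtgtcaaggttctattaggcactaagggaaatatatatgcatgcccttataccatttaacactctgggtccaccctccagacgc
Tnnc1: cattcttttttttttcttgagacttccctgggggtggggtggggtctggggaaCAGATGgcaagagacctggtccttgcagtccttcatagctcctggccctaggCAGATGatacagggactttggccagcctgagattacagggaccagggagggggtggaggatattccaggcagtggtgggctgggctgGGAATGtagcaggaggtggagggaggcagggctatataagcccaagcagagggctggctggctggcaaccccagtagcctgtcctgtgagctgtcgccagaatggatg

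These windows lie at chr2:164779685-164779984 (minus strand) for Tnnc2, chr11:67237562-67237861 (plus) for Myh4, chr1:66945007-66945306 (minus) for Myl1 and chr14:31208062-31208361 (plus) for Tnnc1. The Myh4 window held 3 E-boxes, 1 MEF2 motif, 1 M-CAT motif and 1 CArG box, which is not in capitals, while the Tnnc2 window held 2 E-boxes and none of the other motifs. Myl1 held 1 E-box and 1 M-CAT motif, and Tnnc1 held 2 E-boxes and 1 M-CAT motif. RefSeq windows were found for 28 of the 45 genes called higher, with 34 windows in all. A MEF2 motif stood in 7 of these 34 windows (20.6%) and in 1047 of all 32851 windows (3.19%). M-CAT stood in 13 (38.2%), against 14.7% of all windows, and an E-box in 26 (76.5%), against 72.3%. The CArG box, the motif of serum response factor, stood in 2 (5.88%), against 1.63%. These are matches of letters, described with no test.

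Of 18 thick filament genes measured, 8 (44.4%) were called higher, against 0.247% of all genes, and the list median was 0.44. Myh1, the heavy chain of fast type IIx fibres, was at 8.95, 8.25 and 8.56 in deficient tumour 11, wild type tumour 3 and wild type tumour 7, against 3.53 to 7.92 (median 4.93) in the other tumours, a difference of 3.57 (SE 0.57). Here the order of the score was not kept, and deficient tumour 13, at 7.92, came close to the muscle-high tumours. Myh2, the heavy chain of type IIa fibres, was at 3.71, 5.76 and 2.93, against 2.49 to 3.47 in the others, and deficient tumour 13 was again the highest of these. Wild type tumour 3 alone was well above the other tumours in Myh2, and without it the difference of 1.34 (SE 0.29) was 0.53 and no longer called, as it also was without deficient tumour 11, at 1.56. The call was lost as well with caspase-8 genotype or title series as covariate, at 1.34 in both. Ttn, which encodes the giant spring protein titin, was at 7.67, 5.85 and 5.62, against 3.31 to 3.96 in the other tumours. Myom2, a protein of the M-band where thick filaments are cross-linked, was at 7.31, 6.33 and 4.23, against 2.63 to 3.31. In both, every muscle-high tumour lay above every other one. The mean of its 4 probe sets put Myom2 at a difference of 1.25 in place of 3.10, and that of Mybpc1 was 0.50 in place of 1.05, both still called. The probe sets of 1 gene did not always move together: the Ttn probe set read here differed by 2.82, and the other 5 by 0.04 to 4.81. Another Myh1 probe set, at 2.95 in the muscle-high and 3.03 in the other tumours, differed by -0.08.

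Slow-fibre genes showed little difference. Of 12 measured, 1 (8.33%) was called higher, against 0.247% of all genes. None lay apart from the other tumours in all 3 muscle-high ones, and the list median was 0.12. The list includes Tpm3 and Atp2a2, already high in the other tumours, at means of 11.02 and 11.06. They differed by 0.11 and 0.09. The gene called was Mybpc1, the slow myosin-binding protein C, at 4.54, 5.25 and 3.91, against 3.05 to 3.97 in the other tumours. Its difference of 1.05 (SE 0.18) was 0.71 and not called without wild type tumour 3. Myh7, the heavy chain of slow and cardiac muscle, was at 4.14, 4.12 and 3.82, against 3.57 to 4.16 in the others. The slow troponins lay inside the range of the other tumours but for Tnnt1 in 1 tumour. Tnni1 was at 4.53, 4.39 and 4.74, against 3.92 to 6.05 in the others. Tnnc1 was at 5.30, 5.15 and 5.00, against 4.70 to 6.32 in the others. Tnnt1 was at 4.04, 4.20 and 3.45, against 3.48 to 4.51 in the others, wild type tumour 7 lying just under them. The differences of Tnni1, Tnnc1 and Tnnt1 were 0.01, -0.05 and 0.07, and they turned sign to -0.09 for Tnni1 and 0.02 for Tnnc1 without wild type tumour 7, and to -0.08 for Tnnt1 without wild type tumour 3. Wild type tumour 6 was the highest tumour of all for Tnni1 and Tnnc1. Slow Myl2, a regulatory light chain shared with the heart ventricle, differed by 0.37 (SE 0.09) and Myoz2, a Z-disc protein of slow fibres, by 0.26 (SE 0.12), neither called, though array weights called Myl2, at 0.40. How far fast and slow genes differ from each other was not tested.

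Among thin filament genes 6 of 16 (37.5%) were called higher, against 0.247% of all genes, with a list median of 0.33. Besides the fast troponins these were Neb, which encodes the nebulin ruler of the thin filament, the leiomodins Lmod2 and Lmod3, which seed actin filaments, and Klhl41, a partner of nebulin. Neb was at 6.68, 5.46 and 4.33 in deficient tumour 11, wild type tumour 3 and wild type tumour 7, against 2.40 to 3.23 in the other tumours, a difference of 2.70 (SE 0.25). Klhl41 was at 3.43, 2.99 and 3.31, against 2.27 to 2.75 in the others. Lmod2 and Lmod3 differed by 0.76 and 0.40 and were not called without deficient tumour 11, at 0.74 and 0.29, or without wild type tumour 3, at 0.51 and 0.42. Tmod4, a cap of the thin filament's pointed end, was at 5.54, 4.61 and 4.56, against 3.53 to 4.84 in the other tumours, and was not called, though array weights gave a call at 1.01. The tropomyosin genes Tpm1 and Tpm2 were not called by the probe set that stood for each gene, with a difference of 0.10 for both. Another probe set of each was called, at 1.51 for Tpm1 and 1.69 for Tpm2, and the same held for Art1, a muscle ADP-ribosyltransferase, at 0.75 against 0.19. Both tropomyosins are made as muscle and non-muscle isoforms, and which isoform each probe set reads was not analysed here.

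The Z-disc, which anchors thin filaments, and the costamere, which ties it to the membrane, had 9 of 22 measured genes called higher and none with a difference below 0. Their list median was 0.82, and the share called was 40.9%, against 0.247% of all genes. Actn3, the fast-fibre alpha-actinin that cross-links actin, was at 9.31, 7.40 and 6.97 in the muscle-high tumours, against 4.34 to 5.18 in the others. Myot, the Z-disc protein myotilin, was at 7.24, 5.42 and 4.04, against 2.42 to 3.11 in the others. Ankrd23, a stretch-linked ankyrin repeat protein of titin, was at 7.36, 6.77 and 5.68, against 4.56 to 5.40 in the others. All 3 genes separated the groups with no overlap. Cryab, a small heat shock protein of the Z-disc also made by other cells, was at 7.73, 7.43 and 6.20, against 4.08 to 6.38 in the other tumours. Its difference of 1.76 (SE 0.42) was not called, and it was called without wild type tumour 7, at 2.22, and with array weights, at 1.97. Some weaker calls on the list did not hold when 1 tumour was left out. Des, the intermediate filament desmin, which smooth muscle also makes, was at 7.25, 6.61 and 5.77, against 5.32 to 6.16 in the others. Its difference of 0.89 was not called without deficient tumour 11, at 0.54, or without wild type tumour 3, at 0.86. On the mean of its probe sets it was 0.48, still called. Csrp3, a muscle LIM protein, was highest in wild type tumour 3, at 5.14, against 3.41 to 3.91 in the other tumours, and its difference of 0.82 was 0.48 and not called without that tumour. Flnc, filamin C, differed by 0.67 and was not called without deficient tumour 11, at 0.58, or without wild type tumour 3, at 0.67.

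Of 20 genes that couple the action potential to calcium release and uptake, 5 (25%) were called higher, against 0.247% of all genes. Pvalb, the calcium buffer parvalbumin of fast fibres, was at 8.79, 7.73 and 6.85 in the muscle-high tumours, against 4.01 to 5.21 in the others, a difference of 3.53 (SE 0.22). Trdn, which encodes triadin of the calcium release complex, was at 6.51, 5.10 and 4.01, against 2.59 to 3.34. Casq1, the calcium store protein of fast fibres, was at 6.28, 5.25 and 3.85, against 2.87 to 3.39. These 3 genes kept the order of the score and showed no overlap. With a gene's probe sets averaged, the difference of Trdn was 1.12 in place of 2.32 and that of Sln 0.52 in place of 1.03, both still called. Sln, a small inhibitor of the calcium pump, was at 4.65, 3.78 and 3.76, against 2.65 to 3.37 in the others, and its difference of 1.03 was 0.74 and not called without deficient tumour 11. Cacng1, a subunit of the muscle calcium channel, differed by 0.73 (SE 0.11). The channels themselves were not called with all tumours weighted equally. Ryr1, the calcium release channel, was at 6.89, 5.60 and 5.09, against 4.11 to 5.76 in the other tumours, and its difference of 1.19 (SE 0.32) was 1.40 with array weights and 2.21 among deficient tumours, called in both. Cacna1s, the voltage sensor, was at 4.07, 2.96 and 3.22, against 2.43 to 3.24, and its difference of 0.49 was 0.72 and called without wild type tumour 3.

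Muscle energy genes were a mixed group, with 6 of 24 (25%) called higher, against 0.247% of all genes, and 6 with a difference below 0. Pgam2, the muscle phosphoglycerate mutase, was at 6.81, 5.90 and 5.17 in the muscle-high tumours, against 3.92 to 4.71 in the others. Pygm, the muscle glycogen phosphorylase, was at 5.49, 4.34 and 3.83, against 2.91 to 3.65 in the others, and Ampd1, the muscle AMP deaminase, at 5.52, 4.0 and 3.86, against 2.86 to 3.51. The groups did not overlap in these 3 genes. Deficient tumour 11 weighed most in Pygm and Ampd1, since without it the difference of Pygm was 0.88 in place of 1.35 and that of Ampd1 0.75 in place of 1.28, both still called. Ckmt2, the mitochondrial creatine kinase of sarcomeric muscle, was at 3.12, 3.73 and 3.13, against 2.34 to 2.82 in the others. Eno3, the muscle enolase, overlapped, at 8.22, 7.55 and 6.85 against 5.53 to 7.49, and its difference of 1.25 (SE 0.27) was not called without deficient tumour 11, at 0.91, without wild type tumour 3, at 1.25, or without deficient tumour 15, at 1.24. It was also not called with caspase-8 genotype or title series as covariate, at 1.25 and 1.26. Cox6a2, a muscle subunit of cytochrome oxidase, differed by 0.72 and was not called without deficient tumour 11, at 0.59, or without wild type tumour 3, at 0.67. Mb, the oxygen store myoglobin, was at 6.06, 6.76 and 5.46, against 4.46 to 6.63 in the other tumours, and was not called.

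Among 16 myogenic regulators and satellite cell genes, Myf6 alone (6.25%) was called, against 0.247% of all genes called higher. This regulator of the MyoD family, which persists in mature fibres, was at 4.76, 3.76 and 3.81, against 2.69 to 3.29 in the other tumours, a difference of 1.21 (SE 0.14). The family members of earlier stages were not called. Myod1 was at 3.50, 3.59 and 3.80, against 3.11 to 3.68, and Myog at 3.47, 3.46 and 3.54, against 2.78 to 3.50. Myf5 was at 2.50, 2.62 and 2.76, against 2.39 to 2.83, and Pax7, the satellite cell marker, at 3.53, 3.28 and 3.52, against 2.94 to 3.60. Vgll2 and Mef2c, cofactor and factor of muscle genes, differed by 0.36 and 0.48, not called, though array weights called Vgll2, at 0.39. Of 12 genes of the neuromuscular junction none was called, with 4 (33.3%) at an unadjusted p under 0.05, against 3.67% of all genes. Chrna1, the alpha subunit of the muscle acetylcholine receptor, differed by 0.28, its fetal gamma subunit Chrng by 0.21, the receptor kinase Musk by 0.10 and its partner Lrp4 by -0.23. Of 12 cardiac markers none was called, with 2 (16.7%) at an unadjusted p under 0.05, and Tnni3, cardiac troponin I, differed by 0.18 and Gata4, a heart transcription factor also made elsewhere, by 0.27.

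Embryonic and neonatal muscle genes gave no call among 11, with 3 (27.3%) at an unadjusted p under 0.05, against 3.67% of all genes. Myh3, the embryonic myosin heavy chain, was at 6.74, 5.91 and 6.12 in the muscle-high tumours, against 5.69 to 8.76 (median 6.74) in the other tumours and 3.58 to 4.01 in bone marrow. It was thus above the marrow samples in all 24 tumours, and its highest level was in deficient tumour 6, not in a muscle-high one. Myh8, the perinatal heavy chain, was at 3.59, 3.03 and 3.13, against 2.78 to 3.25. Igf2, a fetal growth factor, was at 5.49, 8.86 and 4.99, against 4.83 to 9.11 (median 5.21) in the other tumours, with wild type tumour 3 and wild type tumour 5 far above the median. Its difference of 0.83 (SE 0.67) turned to -0.38 without wild type tumour 3. Actc1, cardiac actin, which embryonic skeletal muscle also makes, was at 6.41, 6.20 and 6.43, against 5.19 to 7.12, and Ncam1, which neuroblastoma cells make too, at 10.12, 10.56 and 10.40, against a median of 10.62 in the others.

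**Figure D2:**
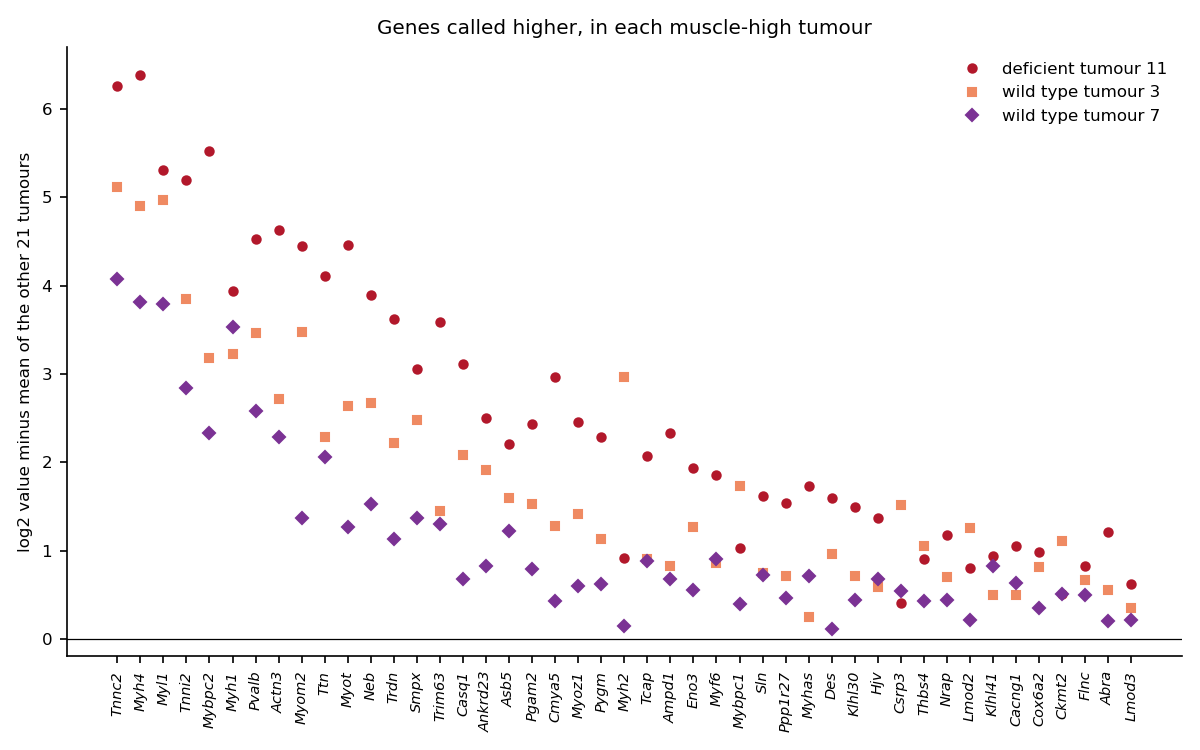
Log2 value in each muscle-high tumour minus the mean of the other 21 tumours, for the 45 genes called higher, ordered by the mean difference. Deficient tumour 11 was the highest of the 3 in 39 genes and wild type tumour 7 the lowest in 37, and Myh2 and Mybpc1 stand out as genes highest in wild type tumour 3.

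The 3 muscle-high tumours differed among themselves in the size of these differences. Over the 45 genes called higher, the median difference from the mean of the other tumours was 2.21 in deficient tumour 11, 1.42 in wild type tumour 3 and 0.71 in wild type tumour 7. The order of the muscle score held in 33 genes. Deficient tumour 11 was highest in 39 genes and wild type tumour 3 in 6, Myh2, Mybpc1, Csrp3, Thbs4, Lmod2 and Ckmt2, as the plot of single tumours shows. On the fast-fibre list the medians were 4.58, 3.21 and 2.46 in the 3 tumours. The difference was at least 1 for 29 genes, at least 2 for 15 and at least 4 for 3. The median of the other tumours was under 5 for 41 of the 45 genes and under 4 for 33, and all 3 muscle-high tumours lay above all 5 marrow samples in 29.

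Muscle genes varied among the other tumours as well, though at lower levels. The highest of the 21 was deficient tumour 13 for 9 of the 45 genes, deficient tumours 10 and 15 for 7 each and deficient tumour 5 for 5. In all, 16 of the 21 tumours were the highest for at least 1 gene. Deficient tumour 15, the next by score, had 5.27 in Tnnc2, 4.76 in Myh4, 4.40 in Myl1 and 5.21 in Pvalb, above the medians of 3.70, 3.47, 3.11 and 4.22 among the other tumours. Without it, 45 of the 46 calls were kept, Eno3 being the one lost. With 1 of the muscle-high tumours left out, 34 genes were called without deficient tumour 11, 37 without wild type tumour 3 and 51 without wild type tumour 7, and 30 of the 46 genes, 29 of them higher, were called in each of these fits. Within the lower title series, 1 muscle-high against 9 other tumours, 27 genes were called, 26 of them among the 46. Within the higher series, 2 against 12, 27 genes were called, 25 of them among the 46.

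The other 10 genes called higher stood on no list of muscle structure or formation, though most are known from striated muscle, so they too are described with no p. Smpx, a small cytoskeletal protein of muscle, was at 5.66, 5.08 and 3.97 in deficient tumour 11, wild type tumour 3 and wild type tumour 7, against 2.40 to 2.83 in the other tumours, a difference of 2.30 (SE 0.17). Trim63, the ubiquitin ligase MuRF1 of muscle wasting, was at 6.35, 4.21 and 4.07, against 2.51 to 3.15 in the others. Its difference of 2.11 (SE 0.25) was 1.38 without deficient tumour 11, still called. Asb5, an ankyrin repeat protein, was at 5.70, 5.08 and 4.71, against 2.94 to 4.13. In these 3 genes the groups did not overlap. Hjv, which encodes the iron regulator hemojuvelin of muscle and liver, was at 4.84, 4.05 and 4.15, against 3.13 to 3.80. Cmya5, which encodes myospryn of striated muscle, overlapped, at 6.78, 5.09 and 4.24 against 3.19 to 4.37. The difference of Cmya5, 1.56 (SE 0.26), was 0.86 and not called without deficient tumour 11. Ppp1r27, a phosphatase subunit, and Myhas, an antisense RNA of the fast myosin heavy chain cluster, differed by 0.91 and 0.90, and were at 0.59 and 0.48, not called, without deficient tumour 11. Klhl30, Thbs4, a thrombospondin of tendon and muscle matrix, and Abra, an actin-linked protein of striated muscle, differed by 0.89, 0.80 and 0.66. These were not called without deficient tumour 11, at 0.58, 0.74 and 0.38, or without wild type tumour 3, at 0.97, 0.67 and 0.71.

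**Figure D3:**
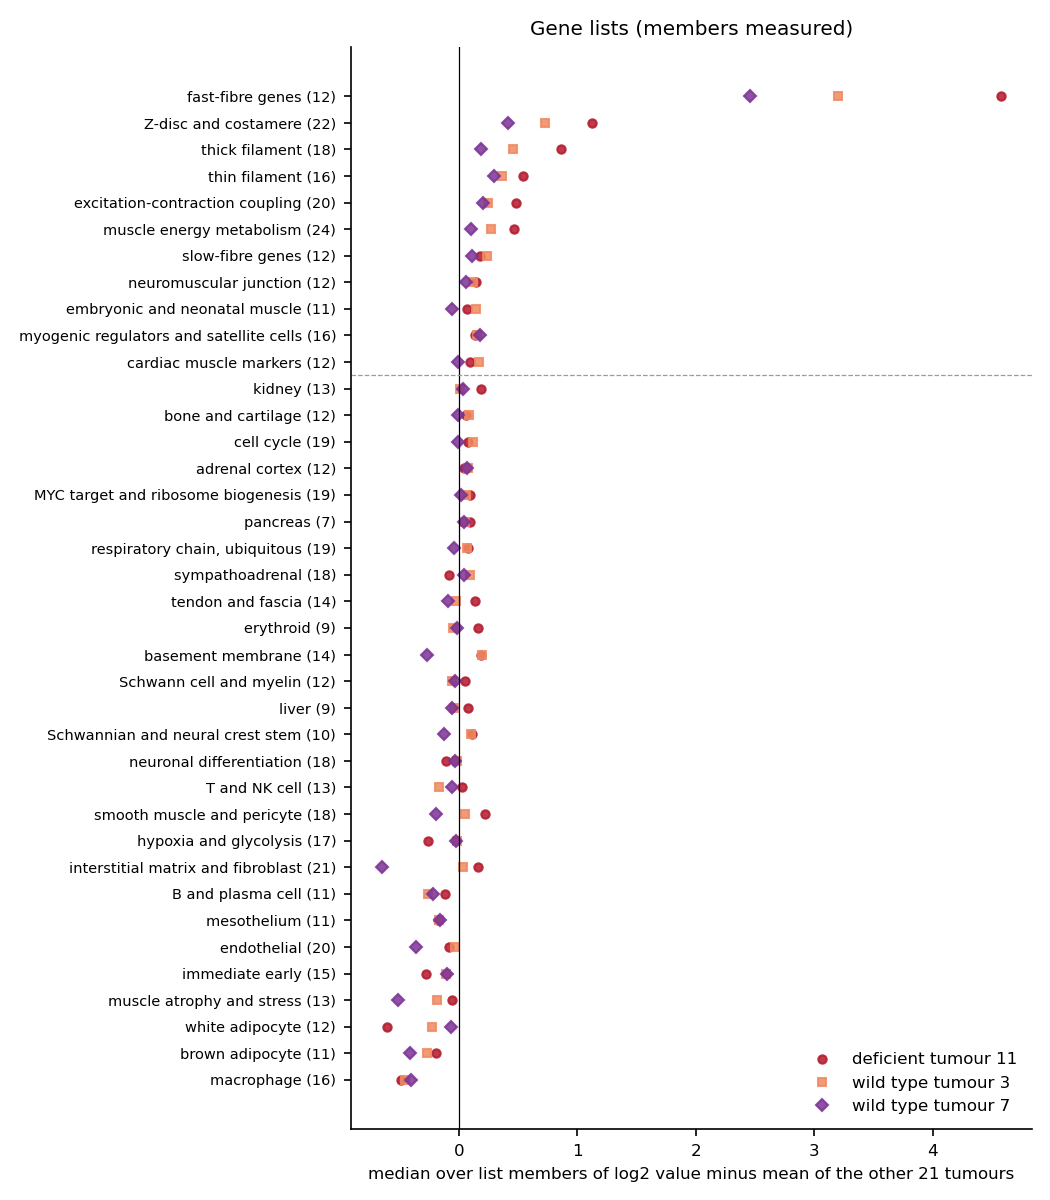
Median over the members of each gene list of the log2 value minus the mean of the other 21 tumours, for each muscle-high tumour, with the number of members measured in brackets. Lists of muscle genes stand above the dashed line and other lists under it, each part ordered by the difference of the 3 tumours together: the fast-fibre list stands far to the right, at 4.58, 3.21 and 2.46 in the 3 tumours, and the macrophage list at the bottom is below 0 in all 3.

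Lists of other cell types and of tumour programmes, which the score did not use, were read next. Of the 27 such lists, 23 had no member called in either direction by limma. Of the 373 genes found only on these lists, 2 (0.536%) were called higher, against 0.247% of all genes, and 11 (2.95%) had an unadjusted p under 0.05, against 3.67% of all genes. The calls on the other 4 were Des on the smooth muscle list, Thbs4 on the tendon list, Pvalb, also a gene of the distal kidney tubule, on the kidney list and Trim63 on the atrophy and stress list. Of the 13 members of that last list 9 were below 0, with a median of -0.20 and a lowest difference of -1.63. The rest of the tendon list and of the kidney list gave no call, and the whole lists had medians of 0.01 over 14 and 0.09 over 13 members. Among 18 smooth muscle and pericyte genes the median was -0.07, and Synpo2, an actin-bundling protein also made by striated muscle, was at 6.43, 6.12 and 5.83, against 4.42 to 6.62 in the other tumours.

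Macrophage genes lay lower, though no member passed the test. All 16 measured had a difference below 0, with a median of -0.44, while 8557 of all 18188 genes had one below 0. Of the 16, 2 (12.5%) had an unadjusted p under 0.05, against 3.67% of all genes. Cd14, an endotoxin co-receptor, was at 4.92, 4.64 and 4.60 in the muscle-high tumours, against 4.47 to 7.29 (median 5.63) in the others, a difference of -1.01 (SE 0.44, limma adjusted p = 0.999). C1qc, a complement subunit made by tissue macrophages, differed by -0.59 (SE 0.28), Laptm5, a lysosomal protein of blood cells, by -0.58 (SE 0.30) and Mrc1, the mannose receptor, by -0.86 (SE 0.51), all with a limma adjusted p of 0.999. The mean level of the list was 7.10, 7.10 and 7.07 in the 3 muscle-high tumours, inside the 6.46 to 8.75 (median 7.64) of the other tumours. All 16 were read in the same tumours, so they are not 16 separate observations.

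Endothelial genes had 19 of 20 differences below 0, against 8557 of all 18188 genes, with a median of -0.15. There was no call, and 0 were at an unadjusted p under 0.05. All 20 were read in the same tumours, so they are not separate observations. Vwf, the clotting factor of vessel walls, differed by -0.45 (SE 0.26) and Tie1, an endothelial receptor kinase, by -0.34 (SE 0.23). By tumour the list median was -0.08, -0.03 and -0.36, so wild type tumour 7 lay lowest. Matrix and fibroblast genes had a median of -0.11 over 21 members, split by tumour as 0.16 in deficient tumour 11, 0.03 in wild type tumour 3 and -0.65 in wild type tumour 7. Dcn, the collagen-binding proteoglycan decorin, was at 5.67, 5.85 and 6.12, against 5.90 to 10.01 (median 7.35) in the other tumours, a difference of -1.74 (SE 0.63, limma adjusted p = 0.999). Lum, the related proteoglycan lumican, and Pdgfra, a receptor of fibroblasts, differed by -1.01 (SE 0.64) and -0.55 (SE 0.39), neither called.

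Adipocyte genes gave no call. The white adipocyte list had a median of -0.31 over 12 members with none called and 0 at an unadjusted p under 0.05. Car3, a carbonic anhydrase abundant in fat and in slow muscle, was at 10.31, 10.34 and 10.59 in the muscle-high tumours, against 3.18 to 11.58 (median 8.89) in the others. The wide spread of the other tumours left its difference of 2.53 with an SE of 1.59. Lpl, lipoprotein lipase, differed by -0.70 (SE 0.38). Of 11 brown adipocyte genes 10 were below 0, against 8557 of all 18188 genes, with none called and 0 at an unadjusted p under 0.05. These too were read in the same tumours and are not separate observations. Ppargc1a, a coactivator of mitochondrial genes, differed by -0.57 (SE 0.30) and Elovl3, a fatty acid elongase of brown fat, by -0.74 (SE 0.55).

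Genes of the tumour's own lineage lay mostly inside the range of the other tumours. Of 18 sympathoadrenal genes none was called, and the median was 0.02. An unadjusted p under 0.05 was found for 1 (5.56%), against 3.67% of all genes. The mean level of the list was 9.04, 9.32 and 9.14 in the muscle-high tumours, inside the 8.58 to 9.52 of the other tumours and above the 4.69 to 4.88 of bone marrow. Th, which encodes tyrosine hydroxylase of catecholamine synthesis, was at 10.38, 11.02 and 11.77, against 9.33 to 11.91, and Dbh, the next but one enzyme of that path, at 7.56, 8.12 and 8.41, against 6.49 to 9.37. Their differences of 0.10 and -0.19 turned sign, to -0.26 for Th without wild type tumour 7 and to 0.04 for Dbh without deficient tumour 11. Mouse Mycn was at 7.51, 7.53 and 7.64, against 7.27 to 7.86. Gata3, a transcription factor of sympathetic neurons, was at 8.71, 9.08 and 5.57, against 7.56 or more (median 9.05) in the other tumours. Wild type tumour 7 thus lay below all 23 other tumours in Gata3, and without it the difference of -1.19 (SE 0.46) was -0.08. Ret, a receptor of sympathetic neurons, differed by 0.77 (SE 0.44) and Insm1, a neuroendocrine factor, by 0.36 (SE 0.19), neither called. Neuronal differentiation genes had a median of -0.05, cell cycle genes 0.07 and MYC target genes 0.05, with no call and 0 at an unadjusted p under 0.05 in any of these 3 lists.

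**Figure D4:**
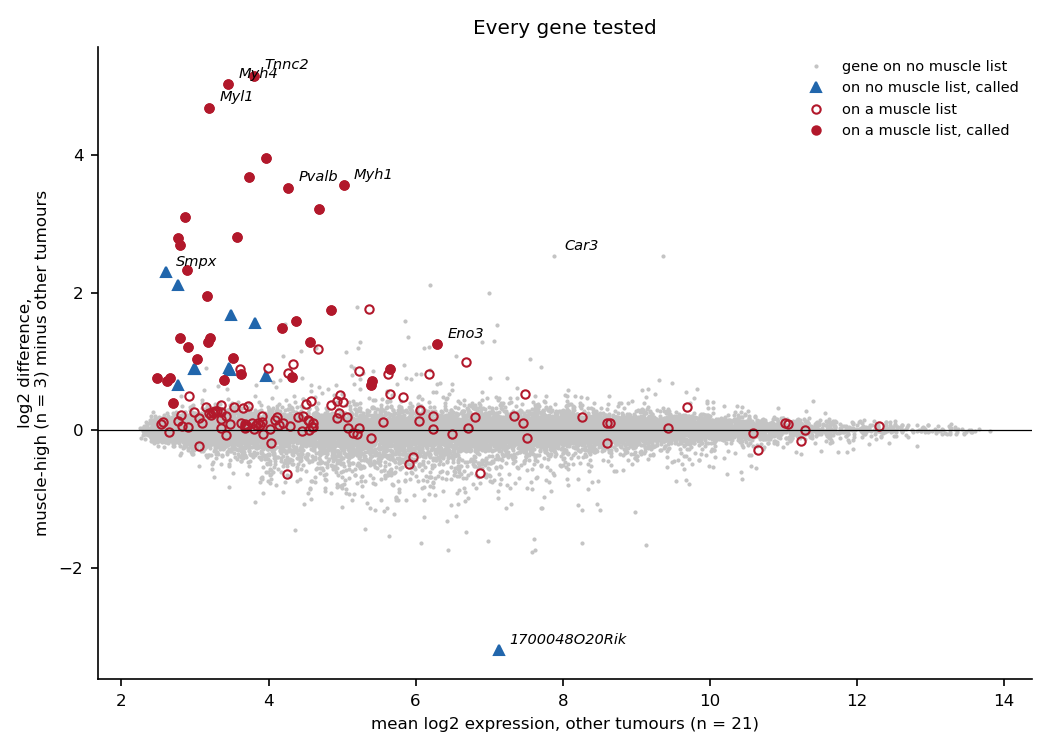
Log2 difference of the 3 muscle-high minus the 21 other tumours (y axis) against the mean log2 level in the other tumours (x axis), for each of the 18188 genes tested, the 5 scoring genes left out. Called means a limma adjusted p under 0.05; all but 1 of the called genes lie above 0 and most at the left, where the other tumours are low, and 1700048O20Rik lies alone at -3.19.

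A single gene was called lower. It is 1700048O20Rik, annotated as a long non-coding RNA on chromosome 9, and it is named here because it was the only such call, after its values were seen. The score did not use this gene, so its test is given. It was at 4.10, 3.87 and 3.85 in deficient tumour 11, wild type tumour 3 and wild type tumour 7, against 6.22 to 7.83 (median 7.10) in the other 21 tumours. The groups did not overlap, and the muscle-high tumours lay inside the 3.76 to 4.90 of bone marrow. Means were 3.94 ± 0.14 (SD, n = 3) in the muscle-high and 7.13 ± 0.53 (SD, n = 21) in the other tumours, which is -3.19 on the log2 scale (SE 0.30), with a limma adjusted p of 1.04e-07. The deposited values carry no detection call, so a level above background is not shown in the muscle-high tumours, and the difference may be a lower bound. The difference was -3.27 without deficient tumour 11, -3.16 without wild type tumour 3 and -3.15 without wild type tumour 7. It was -3.05 in the lower title series, where 1 muscle-high tumour faced 9 others (limma adjusted p = 0.0532), and -3.32 in the higher series (limma adjusted p = 8.65e-05).

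A second probe set of 1700048O20Rik showed a smaller difference, which did not pass the test. It was at 3.32, 3.24 and 3.58 in the muscle-high tumours, against 3.35 to 5.31 (median 3.88) in the others, a difference of -0.50 (SE 0.26, limma adjusted p = 0.9997 over all probe sets). The mean of both probe sets differed by -1.85 (limma adjusted p = 5.82e-05). Over 45031 probe sets, 14 had all 3 muscle-high tumours below all 21 others, and this was the one of them with a gap of 1 or more between the groups. Genes beside it on the chromosome gave no call: of 75 measured neighbours, 40 before and 35 after, none passed the test, and 2 (2.67%) had an unadjusted p under 0.05, against 3.67% of all genes. Its nearest measured neighbours were Cyp8b1 and Pomgnt2. Its promoter window, at chr9:121937025-121937324 (plus strand, RefSeq GRCm38.p6), is shown because the gene is the one call in this direction, with its 1 E-box in capitals. It held no MEF2 or M-CAT motif.
1700048O20Rik: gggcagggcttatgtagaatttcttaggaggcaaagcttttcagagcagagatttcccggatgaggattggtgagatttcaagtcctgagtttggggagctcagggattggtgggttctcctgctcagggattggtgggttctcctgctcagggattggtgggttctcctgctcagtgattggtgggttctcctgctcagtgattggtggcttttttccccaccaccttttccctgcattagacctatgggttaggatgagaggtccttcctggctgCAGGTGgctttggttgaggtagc

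**Figure D5:**
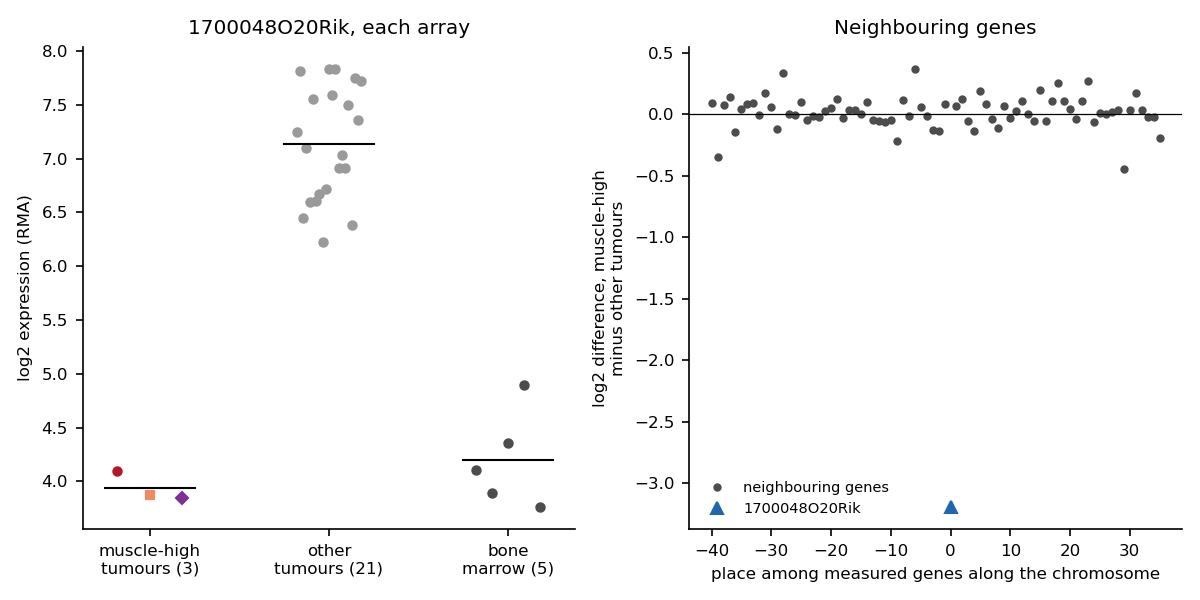
Left, log2 expression of 1700048O20Rik on each array, with bars at the group means: the 3 muscle-high tumours lie at 3.85 to 4.10, the 21 other tumours at 6.22 to 7.83 and the 5 marrow samples at 3.76 to 4.90. Right, log2 difference of the muscle-high minus the other tumours for 1700048O20Rik (triangle, -3.19) and its 75 measured neighbours by their order on the chromosome, which run from -0.44 to 0.37.

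Other genes with lower values in the muscle-high tumours did not pass the test. Among named genes those of smallest p were Acp2, a lysosomal acid phosphatase, with a difference of -0.36 (SE 0.10, limma adjusted p = 0.256), Lifr, the receptor of leukaemia inhibitory factor, with -1.13 (SE 0.32, limma adjusted p = 0.437), and Mboat7, a lipid acyltransferase, with -0.42 (SE 0.12, limma adjusted p = 0.446). Lifr was at 6.64, 6.96 and 6.16 in the muscle-high tumours, against 6.62 to 8.51 (median 7.86) in the other tumours. Dmbx1, a homeobox factor, Rapgef1, an activator of Rap proteins, and Rassf5, a Ras-binding protein of lymphocytes, differed by -0.25, -0.22 and -0.94, with limma adjusted p of 0.482, 0.525 and 0.663. The groups overlapped in all 6.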

How the data were processed

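The authors made the deposited log2 values with RMA in Partek 6.6, per the submitters' processing notes. RMA corrects background, quantile-normalizes and summarises probes, and which arrays were normalized as 1 set is not stated there. Per the labels' protocols, RNA was extracted with Trizol and labelled by a 2-cycle method. Of 45101 probe sets, 34945 had a single symbol in the platform annotation. Each of 18193 genes was read from its probe set of highest mean, taken over all 29 arrays. The 5 scoring genes were left out, and no value was filtered. Groups came from the score over labelled tumours. The test was limma 3.58.1 (lmFit, then eBayes; R 4.3.3), two-sided, with Benjamini-Hochberg adjustment over all genes tested. The score, the 38 gene lists and the members named were chosen with earlier results of these data known. Named were the 15 largest upward calls, the 6 of smallest p downward, a set of muscle and tumour genes, of which some are not reported here, the 10 largest calls on no muscle list and the 4 leading members of each list described. Further called genes were named to complete a list. On simulated data of 18188 genes, in 5 runs, 53.2% of genes changed by 0.5 and 90.8% of those changed by 1 on the log2 scale were recovered. Of 89940 unchanged genes over these runs, 38 were called. Values were drawn independently with the mean and SD of the other tumours, with the same shift in all 3 muscle-high tumours. The real muscle-high tumours differed among themselves, so recovery in the real data may be lower. Alternatives took other probe sets, a minimum mean log2 of 5, other normalizations, covariates, variance models and samples. Figures were drawn with matplotlib 3.10.9.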

Additional observations from a re-analysis of the deposited data

How the results depend on the processing

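The direction of the 45 higher and 1 lower calls did not depend on normalization: centring each array kept all 46 among 49 calls, and a second quantile normalization kept all 46 among 47. Some fits with fewer samples or genes called fewer. With a mean log2 of at least 5 there were 5 calls, 4 higher: the filter left out 38 of the 45 higher genes, and of the 7 it kept, Eno3, Des and Cox6a2 were no longer called among 10865 genes. By limma, the lower title series alone gave 27 calls, 27 higher and 0 lower (72 lower at an unadjusted p under 0.05), the higher series 27, 26 higher, and wild type tumours alone 11, 10 higher. Deficient tumours alone gave 48 calls, 2 lower, and array weights 65, which held all 46. In the lower series and among deficient tumours 1 muscle-high tumour is assumed to vary like the others. Leaving out 1 muscle-high tumour gave 34 to 51 calls, 32 to 50 higher and 1 to 2 lower. The difference in 3' excess, muscle-high minus other tumours, ran from -0.22 to -0.055 with 1 muscle-high tumour left out. Small differences turned sign. With genotype as covariate Mycn was at -0.0099, Th at -0.087 and Tnni1 at -0.086, and with array weights Mycn was at -0.0077 and Tnnc1 at 0.038. In the lower series Cacna1s was at -0.0055, Dbh at 0.079, Mycn at -0.12, Th at -0.035 and Tnni1 at -0.26. In the higher series Igf2 was at -0.36, Musk at -0.0043, Pax3 at -0.015 and Tnnt1 at -0.036. Among deficient tumours Mycn was at -0.037, Myf5 at -0.018, Th at -0.50 and Tnnc1 at 0.14, and among wild type tumours Tnni1 was at -0.17. With 1 muscle-high tumour left out at a time, Dbh ran from -0.38 to 0.041, Igf2 from -0.38 to 1.55, Mycn from -0.032 to 0.036, Pax3 from -0.042 to 0.17, Th from -0.26 to 0.44, Tnnc1 from -0.13 to 0.021, Tnni1 from -0.087 to 0.086 and Tnnt1 from -0.080 to 0.29. Without deficient tumour 15, an alternative chosen after seeing the data, Mycn was at -0.00095 and Tnni1 at -0.015. The cause was not tested. No paired analysis was possible because the sources used here do not say which samples share an animal. Most called genes lie near the array's floor in the other tumours, which limits their fold changes, and no muscle gene list is independent of the score.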
